A study of Mus musculus with 10 samples.

Results

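The cytosolic nucleic acid sensing genes described here were 10 genes chosen by name, with earlier results of these data known. They were the RNA and DNA sensors Ifih1, Dhx58, Zbp1 and Cgas and the adaptors Mavs and Sting1. The others were the nuclease Trex1, the dNTP hydrolase Samhd1 and the kinases Tbk1 and Ikbke. All 10 were found among the 56980 genes of the deposited count table, each on 1 identifier, and all 10 passed the low-count filter that kept 14436 genes for testing. RNA sequencing had been done on mouse macrophages, with 5 KO libraries and 5 WT libraries. KO macrophages came from mice that the design text calls JAMLM-KO and carry the genotype tag JAML Knockdown, so the labels leave unsettled whether the gene was deleted or its RNA reduced, and the M is not spelled out. Jaml encodes junctional adhesion molecule-like protein. WT macrophages came from JAML-WT mice. Both groups had been given 100 ng/ml of lipopolysaccharide (LPS) over 8 h and then 5 mM ATP over 30 min, so cells without LPS and ATP enter no comparison, and the labels name neither the tissue the macrophages came from nor a Cre line. Of the table's count columns, 5 carry the name SI, which no label explains, and 5 the name WT. The SI columns were taken as KO because no other group exists, and are called KO 1 to KO 5 by their headings. Each direction given here rests on that assignment.

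Cells detect viral or misplaced self nucleic acid in the cytosol through separate routes. The helicase MDA5, encoded by Ifih1, binds long double-stranded RNA and signals through MAVS on the mitochondrial surface, and LGP2, encoded by Dhx58, is a related helicase without signalling domains of its own that modulates this route. The enzyme cGAS binds double-stranded DNA and makes cyclic GMP-AMP, which activates STING, and ZBP1 binds Z-form nucleic acid and can engage the kinase RIPK3. Both adaptors recruit the kinases TBK1 and IKK epsilon (Ikbke), which phosphorylate interferon regulatory factors and so switch on type I interferon genes, while TREX1 and SAMHD1 limit the nucleic acid and nucleotides available. Several of these genes are themselves induced by interferon in macrophages.

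The libraries held 19378160 to 22766319 counts in KO and 19319512 to 21230317 in WT. A floor of 3 counts per library amounted to 0.132 to 0.155 CPM in KO and 0.141 to 0.155 CPM in WT, and covers counting error only. Jaml itself had 2 counts in KO 4, 2 counts in WT 1 and 0 in the other libraries, so it could not check the labels at this depth. All 10 macrophage markers examined were above the floor in every library, with a summed level of 23230 to 25211 CPM in KO and 24289 to 25871 CPM in WT. By the test described below, 4 of these 10 markers were lower and 2 higher in KO. Of all genes tested, 15.0% were lower and 14.1% higher. Lyz2 made up most of the sum, at 17531 CPM in KO and 18210 CPM in WT, so the sum can hide changes of single markers. Fcgr1, with the largest change of the 10, averaged 59.1 CPM in KO and 182 CPM in WT. Cd3e of T cells, Ncr1 of NK cells, Siglech of plasmacytoid dendritic cells and Xcr1 of conventional dendritic cells were at 0 in every library. Other genes of the dendritic cell lists were above the floor in every library. These were Ccr9 and Tcf4 of the plasmacytoid list and Zbtb46 and Clec9a of the conventional list. The summed T, B and NK cell markers each stayed at or below 1.23 CPM in every library. Other lists were apart between the groups. The 5 plasmacytoid markers summed to 24.4 to 31.5 CPM in KO and 38.8 to 42.3 CPM in WT, nearly all of it Tcf4. The 6 mast cell markers summed to 4.27 to 5.44 CPM in KO and 7.48 to 13.5 CPM in WT, and the 6 neutrophil markers to 22.8 to 27.1 CPM in KO and 14.8 to 19.2 CPM in WT. Most of the neutrophil sum was S100a8, at 21.5 CPM in KO and 14.6 CPM in WT. Camp averaged 3.27 CPM in KO and 2.25 CPM in WT. These were the 2 neutrophil markers tested, and both were higher in KO. Ly6g and S100a9 had at most 3 counts in any library. The 6 mesothelial and fibroblast markers overlapped, with 375 to 482 CPM in KO and 372 to 418 CPM in WT. Of them, 2 were lower and 2 higher in KO, beside the same 15.0% and 14.1% over all genes tested. The conventional dendritic cell markers overlapped too, at or below 2.32 CPM in every library. Their part in the results below was not tested.

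Most of the sensing genes were lower in KO macrophages, and they fell by unequal amounts. Of the 10 genes 8 fell, none rose and 2, Mavs and Cgas, did not pass the test (edgeR quasi-likelihood test, Benjamini-Hochberg adjusted p under 0.05). Over all genes tested, 29.1% were called in either direction, 15.0% lower and 14.1% higher in KO. As the 10 genes were chosen with earlier results of these data known, such shares serve as background and not as a test. The median log2 fold change was -0.56 over the 10 genes and 0.01 over all genes tested. Samhd1, Ifih1, Trex1, Dhx58 and Zbp1 were each called and at least 1.5-fold lower, which was 5 of the 10 genes and held for 4.18% of all genes tested. The kinases and Sting1 fell by less than that. For the 8 genes that fell, all 5 KO values lay below all 5 WT values, a separation found in this direction for 12.4% of genes tested. In bulk RNA, fewer cells of a kind and less RNA per cell cannot be told apart, and the labels do not state whether each library had its own animal or culture. The spread behind every p-value is that between libraries and could be technical.

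**Figure D1:**
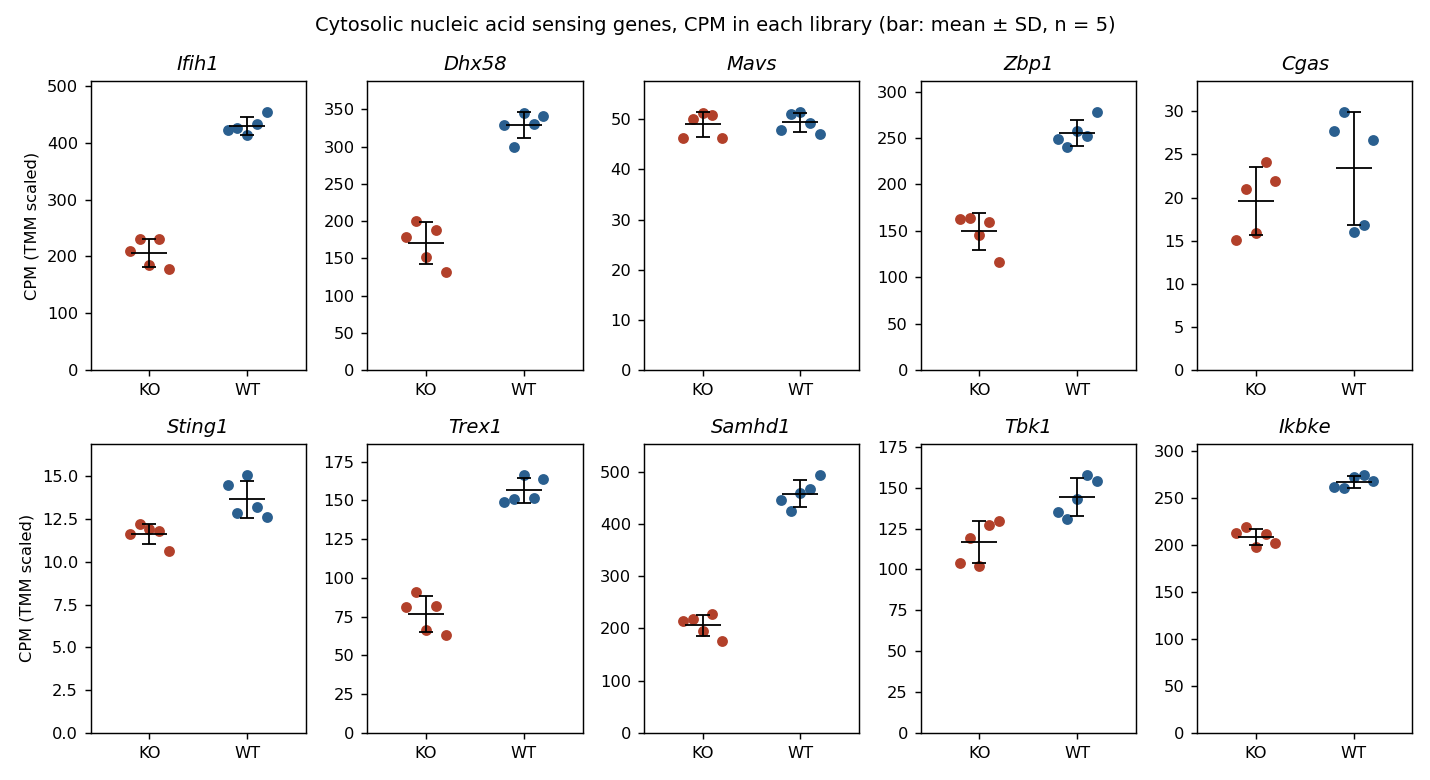
CPM (counts scaled to library size and composition) of the 10 genes in each of 5 KO and 5 WT libraries, with bars for mean ± SD. Points of the groups are apart for 8 genes and overlap for Mavs and Cgas.

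**Figure D2:**
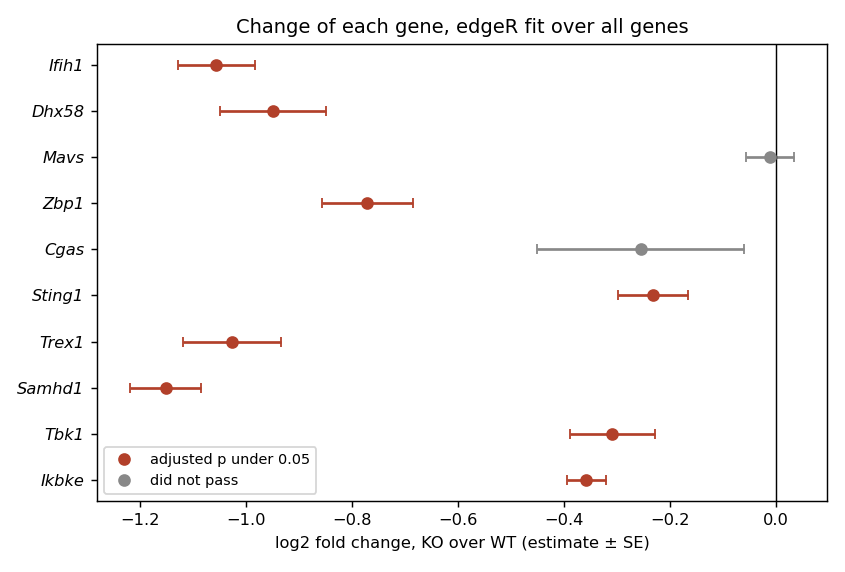
Log2 fold change of each gene, KO over WT, as estimate ± SE from the fit over 14436 genes. Samhd1, Ifih1, Trex1, Dhx58 and Zbp1 lie between -1.15 and -0.77, Ikbke, Tbk1 and Sting1 between -0.36 and -0.23, and Mavs near 0.

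The RNA sensor Ifih1 (ENSMUSG00000026896, chromosome 2, 62426142 to 62476599 as the table lists it, without naming a build) had 209, 231, 186, 230 and 178 CPM in KO 1 to KO 5, against 422, 425, 414, 433 and 454 CPM in WT 1 to WT 5. The lowest WT value was thus well above the highest KO value, and the WT libraries lay closer together than the KO libraries. The means were 207 ± 24.6 CPM in KO and 429 ± 15.2 CPM in WT (SD, n = 5 each), 2.08-fold lower in KO, with a log2 fold change of -1.06 ± 0.07 (SE; edgeR adjusted p = 1.05e-06). Dhx58, which encodes LGP2 (ENSMUSG00000017830, chromosome 11, 100585710 to 100595097), had 179, 201, 152, 189 and 132 CPM in KO 1 to KO 5, against 329, 300.1, 345, 330 and 341 CPM in WT 1 to WT 5. Here too the groups were apart, with KO 5 the lowest library. Dhx58 fell by 0.95 ± 0.10 on the log2 scale, a 1.93-fold difference (edgeR adjusted p = 2.43e-05). An antisense gene at the same place, Dhx58os, had at most 9 counts in any library.

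Mavs, the mitochondrial adaptor through which MDA5 signals (ENSMUSG00000037523, chromosome 2, 131075983 to 131089945), had 46.3, 50.01, 51.3, 50.8 and 46.3 CPM in KO 1 to KO 5, against 47.9, 51.0, 51.4, 49.2 and 47.1 CPM in WT 1 to WT 5. The groups overlapped almost wholly. The log2 fold change was -0.01 ± 0.05 with an approximate 95% interval of -0.10 to 0.08 (edgeR adjusted p = 0.89), and its sign depended on the scaling and filter. Sensor and adaptor were therefore set against each other inside each library, where scaling cancels. With Mavs near level, the ratio largely restates the fall of Ifih1 and is not a separate result. The ratio of Ifih1 to Mavs counts was 3.62 to 4.61 in KO and 8.06 to 9.63 in WT. No KO ratio reached a WT ratio, and the mean log2 ratio differed by -1.05 ± 0.08 (KO minus WT ± SE; exact permutation test, two-sided, p = 0.00794, adjusted 0.0238 over 6 ratios, where 0.00794 is the smallest p that 5 against 5 allows). The ratio of Dhx58 to Ifih1 was 0.745 to 0.871 in KO and 0.706 to 0.834 in WT. The mean log2 ratio of these helicase genes differed by 0.10 ± 0.06, with p = 0.119 in a two-sided exact permutation test (adjusted 0.179).

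Zbp1, the sensor of Z-form nucleic acid (ENSMUSG00000027514, chromosome 2, 173048405 to 173060716), had 163, 164, 146, 159 and 117 CPM in KO 1 to KO 5, against 249, 240.5, 258, 252 and 278 CPM in WT 1 to WT 5. Its KO values were close together apart from KO 5, and all were below WT. Zbp1 fell by 0.77 ± 0.09 on the log2 scale, a 1.71-fold difference (edgeR adjusted p = 3.6e-05). Ripk3, the kinase that ZBP1 engages, averaged 16.4 CPM in KO and 15.1 CPM in WT, with a log2 fold change of 0.12 ± 0.06 that did not pass (edgeR adjusted p = 0.173). The Zbp1 to Ripk3 ratio was 7.05 to 10.9 in KO and 15.1 to 19.9 in WT. These ratios did not overlap, and the mean log2 ratio differed by -0.90 ± 0.12 (exact permutation test, two-sided, p = 0.00794, adjusted 0.0238). As Ripk3 changed little, the ratio largely restates the fall of Zbp1. The list of ZBP1 death partners, chosen with earlier results of these data known, held 7 genes. Of these, 3 fell, none rose and 4 did not pass, where 15.0% of all genes tested were lower and 14.1% higher. With library totals in place of composition scaling, 3 were lower and 1 higher, beside 9.43% and 29.3% over all genes. Mlkl, the executioner of necroptosis, averaged 49.8 ± 6.15 CPM in KO and 116 ± 7.94 CPM in WT (SD, n = 5 each). Cflar, an inhibitor of caspase-8, averaged 456 ± 35.4 CPM in KO and 795 ± 22.0 CPM in WT. Casp8 averaged 61.6 ± 0.733 CPM in KO and 83.0 ± 6.46 CPM in WT. Members of the list thus moved unequally, with Mlkl 2.33-fold and Cflar 1.74-fold lower in KO beside a log2 fold change of -0.02 ± 0.05 for Ripk1, a kinase of the same complex named after its value was seen.

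On the DNA route, Cgas (ENSMUSG00000032344, chromosome 9, 78337808 to 78350519) had 15.1, 21.0, 15.9, 24.1 and 21.9 CPM in KO 1 to KO 5, against 27.7, 29.9, 16.0, 16.8 and 26.6 CPM in WT 1 to WT 5. Libraries of both groups took either a low level, near that of KO 1, KO 3, WT 3 and WT 4, or a higher one. Cgas was the most variable of the 10 genes, with a coefficient of variation of 19.9% in KO and 27.9% in WT. The log2 fold change was -0.26 ± 0.20 with an approximate 95% interval of -0.64 to 0.13 (edgeR adjusted p = 0.375), so falls of the size seen for Tbk1 or Ikbke lie inside the interval. The estimate depended on single libraries, running from -0.35 without WT 3 to -0.14 without WT 2, and was -0.07 without KO 1 and KO 3, and it passed the test in none of the 19 alternatives. A pseudogene listed at the same place, Gm8093, had 8 to 16 counts per library, and reads of the pair may have been split by the authors' counting.

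Sting1, the adaptor that binds cyclic GMP-AMP (ENSMUSG00000024349, chromosome 18, 35866732 to 35873607), had 11.6, 12.2, 11.9, 11.8 and 10.6 CPM in KO 1 to KO 5, against 14.5, 12.8, 15.1, 13.2 and 12.6 CPM in WT 1 to WT 5. The groups did not overlap, but the highest KO value and the lowest WT value were close. Sting1 fell by 0.23 ± 0.07 on the log2 scale, a 1.17-fold difference (edgeR adjusted p = 0.0216). The call was lost with library totals in place of composition scaling (adjusted p = 0.208), without a low-count filter (0.0771), without KO 5 (0.0528), without WT 1 (0.0673), without WT 3 (0.0672), and without KO 1 and KO 3 together (0.0577). The ratio of Cgas to Sting1 was 1.30 to 2.06 in KO and 1.06 to 2.32 in WT, with a mean log2 difference of 0.00 ± 0.26 (exact permutation test, two-sided, p = 0.992).

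Both genes that limit cytosolic nucleic acid and its precursors fell. Trex1, the main cytosolic DNA exonuclease (ENSMUSG00000049734, chromosome 9, 108887001 to 108888802), had 81.2, 91.2, 66.4, 82.0 and 63.2 CPM in KO 1 to KO 5, against 149, 151, 167, 152 and 164 CPM in WT 1 to WT 5. No KO library came near the WT range. Trex1 fell by 1.03 ± 0.09 on the log2 scale, a 2.04-fold difference (edgeR adjusted p = 7.32e-06). It lies inside the listed span of Atrip, a DNA damage response gene, and reads shared between them cannot be assigned with certainty. Atrip averaged 14.4 ± 0.801 CPM in KO and 17.4 ± 4.21 CPM in WT, with a log2 fold change of -0.27 ± 0.15 (edgeR adjusted p = 0.208).

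Samhd1, the dNTP hydrolase (ENSMUSG00000027639, chromosome 2, 156939453 to 156977185), had 214, 218, 196, 227 and 177 CPM in KO 1 to KO 5, against 445, 425, 459, 466 and 494 CPM in WT 1 to WT 5. Its fall was the largest of the 10 genes, 2.22-fold, with a log2 fold change of -1.15 ± 0.07 (edgeR adjusted p = 3.62e-07). Among all genes tested, 1.67% had a lower log2 fold change than Samhd1. The ratio of Cgas to Trex1, sensor over nuclease, was 0.186 to 0.347 in KO and 0.096 to 0.198 in WT. It was higher in KO by 0.81 ± 0.26 on the log2 scale (exact permutation test, two-sided, p = 0.0238, adjusted 0.0476), although the groups overlapped. That call was lost without KO 2, KO 3, KO 4, KO 5, WT 3, WT 4 or WT 5 (adjusted p of 0.0635 to 0.0952). As Cgas did not pass the test, the ratio largely restates the fall of Trex1 and is not a separate result.

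Both kinases fell by small amounts. Ikbke (ENSMUSG00000042349, chromosome 1, 131182080 to 131207344) had 213, 220, 198, 212 and 202 CPM in KO 1 to KO 5, against 262, 261, 272, 275 and 269 CPM in WT 1 to WT 5. It was the steadiest of the 10 genes, with coefficients of variation of 4.19% in KO and 2.39% in WT. It fell by 0.36 ± 0.04 on the log2 scale, a 1.28-fold difference (edgeR adjusted p = 2.01e-05). Tbk1 (ENSMUSG00000020115, chromosome 10, 121382360 to 121422692) had 104, 119, 102, 127 and 130 CPM in KO 1 to KO 5, against 135, 131, 143, 158 and 154 CPM in WT 1 to WT 5. The gap between KO 5 and WT 2 was narrow. Tbk1 fell by 0.31 ± 0.08, a 1.24-fold difference (edgeR adjusted p = 0.0119, and at most 0.0494 over 19 alternative settings). The ratio of Ikbke to Tbk1 was 1.56 to 2.05 in KO and 1.74 to 1.99 in WT, and its mean log2 differed by -0.05 ± 0.08 (exact permutation test, two-sided, p = 0.587). A difference between the kinases was not detected.

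**Figure D3:**
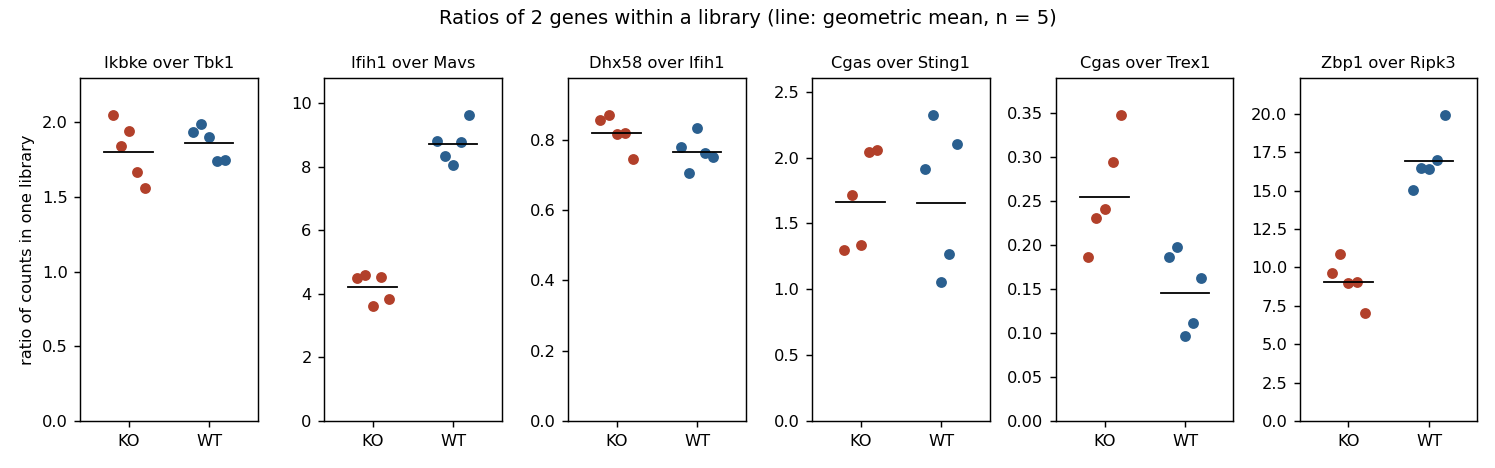
Ratio of the counts of 2 genes inside each library, for 6 pairs, with lines at geometric means. Ifih1 over Mavs (3.62 to 4.61 in KO, 8.06 to 9.63 in WT) and Zbp1 over Ripk3 are apart between groups, the other 4 ratios overlap.

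Sequence at the gene starts was looked up for all 10 genes. The RefSeq promoter table (GRCm38.p6, 250 bases before to 50 after each start) matched 7 of them, Ifih1, Mavs, Cgas, Trex1, Samhd1, Tbk1 and Ikbke, and so not Dhx58, Zbp1 or Sting1. Printed are the windows with a match and, beside them, that of Mavs, whose RNA did not pass the test. Its positions were not combined with those of the count table, whose build is not named. Searched on both strands were an interferon regulatory factor form (GAAA and GAAA with 2 bases of any kind between them), the STAT dimer form TTCNNNGAA, which reads the same on both strands, and an NF-kB form (GGGA and TTTCC with 1 base of any kind between them). The first was found at 1 of the 7 genes, Ifih1, and in 3.44% of all 32851 windows. The second was found at Samhd1 and in 8.3% of windows, and the third at none of the 7 and in 0.411% of windows. Trex1, which fell 2.04-fold, had 2 windows and no match in either. Annotated exon of Atrip or Trex1 covered 185 of the 250 upstream bases in 1 window. Exon of Atrip covered all 250 in the other. In Ifih1 the match began at position 33 after the start, shown in capitals within the 28 bases at chr2:62646206-62646233 (minus strand). No match stood in the 250 bases upstream of it at chr2:62646256-62646505, nor in those upstream of Mavs at chr2:131233813-131234062 (plus strand). In Samhd1 the match, in capitals, began at position -235 from the start, inside the 81 bases at chr2:157135266-157135346 (minus strand) that precede its first annotated exon. All are written from 5′ to 3′ on the strand of the gene.
Ifih1 start: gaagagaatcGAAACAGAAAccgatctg
Ifih1 upstream: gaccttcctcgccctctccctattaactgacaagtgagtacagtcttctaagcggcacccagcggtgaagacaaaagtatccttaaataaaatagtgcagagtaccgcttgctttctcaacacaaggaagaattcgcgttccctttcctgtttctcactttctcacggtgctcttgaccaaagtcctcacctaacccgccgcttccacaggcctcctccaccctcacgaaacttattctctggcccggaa
Samhd1 upstream: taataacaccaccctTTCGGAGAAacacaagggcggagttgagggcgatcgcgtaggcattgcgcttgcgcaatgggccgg
Mavs upstream: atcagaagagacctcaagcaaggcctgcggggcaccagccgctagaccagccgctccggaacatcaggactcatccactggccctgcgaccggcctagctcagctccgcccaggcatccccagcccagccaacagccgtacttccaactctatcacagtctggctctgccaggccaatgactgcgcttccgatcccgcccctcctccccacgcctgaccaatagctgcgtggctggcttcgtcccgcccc
A match of letters describes these windows and does not show binding.

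Levels were compared between genes per length, as CPM per kilobase, with the gene lengths implied by the deposited FPKM. These lengths ran from 2138 bases for Trex1 to 11842 for Ikbke, and how the authors set them is not given. They may exceed the transcripts present by unequal amounts, so the order between genes holds for these lengths only. In KO, Dhx58 stood highest at 39.0 ± 6.39 CPM per kilobase, before Trex1 at 35.9 ± 5.46 and Zbp1 at 31.0 ± 4.09 (SD, n = 5), with overlapping ranges for neighbours in this order. In WT the same genes led, at 75.2 ± 4.03, 73.2 ± 3.79 and 52.9 ± 2.91 CPM per kilobase, and only Dhx58 and Trex1 overlapped. The middle of the order changed with genotype. In KO, Tbk1 (19.8 ± 2.19), Ifih1 (18.3 ± 2.18), Samhd1 (17.8 ± 1.72) and Ikbke (17.6 ± 0.739 CPM per kilobase) overlapped with their neighbours. In WT, Samhd1 (39.5 ± 2.20) and Ifih1 (38.0 ± 1.34) stood above Tbk1 (24.6 ± 1.99) and Ikbke (22.6 ± 0.54 CPM per kilobase) without overlap. Mavs followed at 8.64 ± 0.436 in KO and 8.70 ± 0.329 CPM per kilobase in WT. The lowest levels were those of the DNA route in both groups. Cgas had 2.20 ± 0.439 in KO and 2.63 ± 0.732 in WT, and Sting1 had 1.69 ± 0.0867 in KO and 1.98 ± 0.158 CPM per kilobase in WT.

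The same KO libraries were often at the ends of the KO range. Of the 8 genes that fell, KO 5 was the lowest KO library for 6 and KO 3 for 2, while KO 2 was the highest for 6. Among the 8 genes, 7 varied more in KO than in WT by their coefficient of variation. It ran from 4.19% to 16.4% in KO and from 2.39% to 8.1% in WT. The share of all genes that varied more in KO was not computed, so this count is not shown to be particular to these genes. For Tbk1, KO 5 was instead the highest KO library. KO 1 and KO 3 had the lowest KO values of both Cgas and Tbk1. Averaged over all genes tested, KO 3 stood farthest from the other libraries of its genotype (root mean square log2 difference of 0.442, against 0.330 to 0.379 for the other KO libraries and 0.297 to 0.332 for WT). Without KO 1 and KO 3 the calls of Ifih1, Dhx58, Zbp1, Trex1, Samhd1, Tbk1 and Ikbke held, and 7 of the 10 genes were lower.

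**Figure D4:**
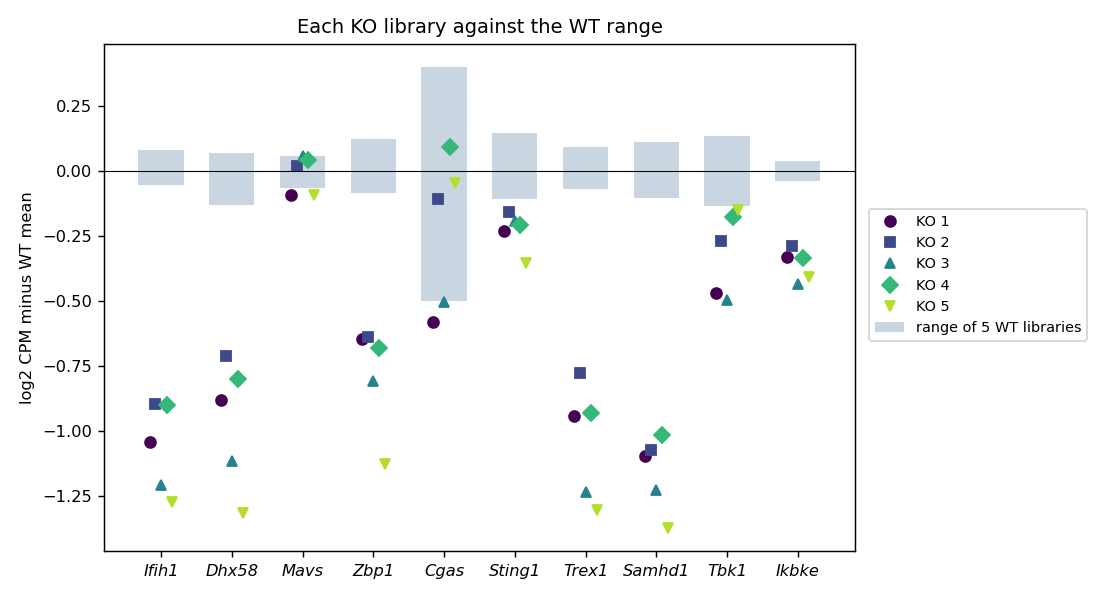
Log2 CPM of each KO library minus the WT mean of the same gene, with shaded boxes for the range of the 5 WT libraries. KO 5 lies lowest for Ifih1, Dhx58, Zbp1, Trex1, Samhd1 and Sting1, and Cgas spreads widely in both groups.

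By the root mean square difference of log2 CPM over the 10 libraries, each gene centred on its WT mean, the sensing genes lay nearest to different genes. Within the set, Ifih1 and Trex1 were the closest pair (0.0731), before Dhx58 and Trex1 (0.0734) and Ifih1 and Samhd1 (0.0833). Among 9300 other genes of at least 3 mean log2 CPM, predicted genes passed over, the profile nearest to Ifih1 was that of Parp14 (0.0346), before Samd9l (0.0385) and Stat2 (0.0399). Dhx58 lay nearest to Ifi35 (0.0415), Zbp1 to Oas1g (0.0542, a gene with near copies, so that its counts are uncertain), Trex1 to Samd9l (0.0723) and Samhd1 to Tpst1 (0.0471). For the genes with small falls the nearest were Gypc for Ikbke (0.026), Naip6 for Tbk1 (0.0623) and Fxr2 for Sting1 (0.0435). Mavs lay nearest to G3bp1 (0.0363). Cgas had no close neighbour, the nearest being Acvrl1 at 0.163. Because each gene was centred on its WT mean, genes with a similar log2 fold change lie near each other by construction. Neighbours of genes with large and small falls therefore had to differ. The measure describes likeness in these libraries, which share their depth and scaling.

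Partners of the pathway were read from 7 lists, all chosen with earlier results of these data known. Their counts stand beside 15.0% of all genes tested lower and 14.1% higher in KO, or 9.43% lower and 29.3% higher with library totals in place of composition scaling. Of 20 tested RNA sensing partners 9 fell and none rose, with a median log2 fold change of -0.11, against 0.01 over all genes tested. Rnf135, the ubiquitin ligase Riplet, averaged 15.8 ± 1.11 CPM in KO and 27.9 ± 1.37 CPM in WT (SD, n = 5 each), Trim25, another ubiquitin ligase, 385 ± 30.7 CPM in KO and 589 ± 7.36 CPM in WT, and the helicase gene Ddx60 67.3 ± 10.9 CPM in KO and 145 ± 8.64 CPM in WT. All 3 were apart between groups, with Ddx60 2.15-fold, Rnf135 1.76-fold and Trim25 1.53-fold lower in KO. With library totals 8 of the list were lower and 4 higher.

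Of 18 tested scaffolds and targets of TBK1 and IKK epsilon, 9 fell and none rose, beside 15.0% lower and 14.1% higher over all genes, and with library totals 6 were lower and 1 higher, beside 9.43% and 29.3%. Irf7, an interferon regulatory factor that these kinases phosphorylate and that interferon itself induces, averaged 221 ± 35.5 CPM in KO and 490 ± 11.4 CPM in WT, 2.21-fold lower. The scaffold genes Azi2 and Tank fell by 0.67 ± 0.06 and 0.48 ± 0.05 on the log2 scale (edgeR adjusted p = 7.75e-06 and 1.28e-05). Irf3, the constitutive substrate, named after its value was seen, had a log2 fold change of -0.12 ± 0.06 that did not pass (edgeR adjusted p = 0.17).

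Of 19 tested DNA sensing partners 5 fell and 3 rose, beside 15.0% lower and 14.1% higher over all genes, and with library totals 2 were lower and 8 higher, beside 9.43% and 29.3%. Lrrc8c, a subunit of the volume-regulated anion channels that can carry cyclic GMP-AMP, fell by 0.48 ± 0.04 on the log2 scale and Trim56 by 0.25 ± 0.05, while Polr3g, an RNA polymerase III subunit, rose by 0.69 ± 0.11. In the list of STING traffic and control 3 of 19 fell and 4 rose, a share near the 15.0% and 14.1% of all genes, and with library totals 2 were lower and 7 higher, beside 9.43% and 29.3%. These counts therefore show nothing particular to the list. Usp18, which removes ISG15 and restrains interferon receptor signalling, averaged 177 ± 35.1 CPM in KO and 490 ± 7.01 CPM in WT, 2.77-fold lower. Rhbdf2, which encodes iRhom2, fell by 0.32 ± 0.04, and Insig1, an anchor of the sterol sensing complex, rose by 0.42 ± 0.03 on the log2 scale.

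Of 15 tested genes of nucleic acid clearance 8 fell and 2 rose, beside 15.0% lower and 14.1% higher over all genes, and with library totals 6 were lower and 4 higher, beside 9.43% and 29.3%. Pld4, an endosomal exonuclease, averaged 12.9 ± 1.36 CPM in KO and 34.7 ± 1.68 CPM in WT, a 2.69-fold fall. Pnpt1, a mitochondrial RNA exonuclease, fell by 0.60 ± 0.05 on the log2 scale. Rnaset2b fell by 0.28 ± 0.04, and since Rnaset2a is a near-identical copy the counts of the pair are uncertain. Dnase2a, the lysosomal DNase, rose by 0.56 ± 0.10 and was named after its value was seen.

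The interferon genes at the end of the pathway could not be compared. Of 20 type I and III interferon genes in the table, 4 had any count, and no library held more than 2 counts of any of them. Ifnb1 had 1 count over the 5 KO libraries and 3 over the 5 WT libraries. Since every library lay under the floor of 3 counts, these RNAs could not be detected at the depth sequenced, in KO or in WT, and folds are left out.

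**Figure D5:**
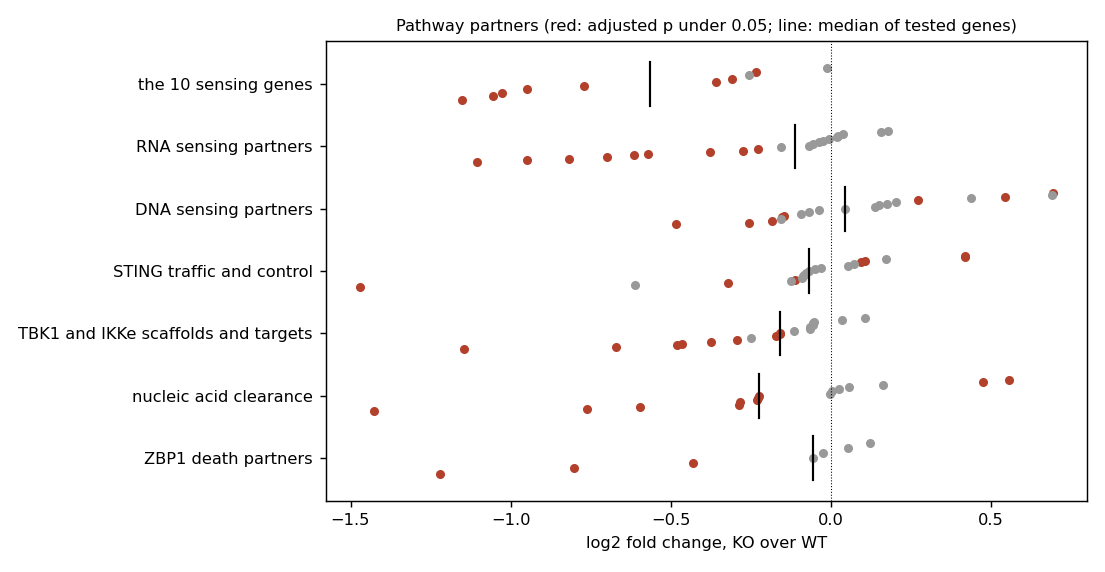
Log2 fold change, KO over WT, of each tested gene in the set and in 6 partner lists, red where the adjusted p was under 0.05, with a line at the median. The 10 sensing genes have a median of -0.56, and the partner lists have medians between -0.22 and 0.04.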

How the data were processed

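RNA-seq counts of 5 KO and 5 WT libraries were used. The table deposited by the authors gives, per the file headers, a raw count for each gene in each library. The deposited FPKM of the WT libraries served only to recover the gene lengths the authors used (largest relative spread 4.54e-06 over 8318 genes with at least 200 counts in every WT library). The submitters' processing notes name TopHat2 2.0.6 and CASAVA 1.8, and both mm10 and GRCm39, without saying which served the table. The listed span of Ifih1 ends at 62476599, short of its GRCm38.p6 window at 62646206 to 62646505. The listed positions are therefore not those of GRCm38.p6. How reads were counted, and whether strand was used, is not given in the sources used here. A further 5 FPKM columns, headed SI, were not used.

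Counts were tested with edgeR 4.0.16 in R 4.3.3 for KO against WT, by the quasi-likelihood F test on TMM-scaled libraries after filterByExpr at its minimum count of 10, with Benjamini-Hochberg adjustment over 14436 genes and a threshold of 0.05. CPM values use the TMM factors, and log2 CPM a prior count of 2. Ratios used counts plus 0.5. Tested on simulated KO against WT data over 14240 genes, this test called 22% of genes with a set change of 1.25-fold, 78% of those with 1.5-fold and 90% of those with 2-fold. Only 50 genes were changed at each fold, whereas 29.1% of genes were called in the data. The adjusted threshold is stricter where few genes change, so these shares do not give the recovery in the data. The chi-square per gene between libraries of one genotype was at least 9.87, so none was a duplicate.

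The members, lists and alternatives were chosen with earlier results of these data known. Named were the 10 members, Jaml, the 3 list genes with the smallest p, the genes in ratios and the genes of nearest profile. Alternatives were other scalings (DESeq2 size factors, library totals), filters (none, or 50 counts in 5 libraries), a block for replicate number, robust edgeR, the DESeq2 1.42.0 Wald test, limma-voom 3.58.1, and libraries left out.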

Additional observations from a re-analysis of the deposited data

How the results depend on the processing

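The calls of Samhd1, Ifih1, Trex1, Dhx58, Zbp1, Ikbke and Tbk1 held under all 19 alternatives, and the count of sensing genes called was 7 or 8, with 7 wherever Sting1 was lost. With library totals the median over all tested genes was 0.12 on the log2 scale, against 0.01 with composition scaling, and 1361 genes were called lower and 4231 higher, against 2164 lower and 2036 higher. Mavs, never called, had 0.10 with library totals, 0.0142 without a filter, 4.32e-05 with the stricter filter and -0.0284 to 0.0168 with single libraries left out. The Cgas to Sting1 ratio, never called, differed by -0.000276 on the log2 scale with 5 added to each count and by -0.16 to 0.12 with single libraries left out, and the Ikbke to Tbk1 ratio by -0.0937 to 0.0052. The Cgas to Trex1 ratio ranged from 0.66 to 0.92 with single libraries left out. Without KO 1 and KO 3 the ratios Ifih1 over Mavs (-1.01), Zbp1 over Ripk3 (-0.93) and Cgas over Trex1 (0.98) no longer passed the exact permutation test. The adjusted p of Ifih1 over Mavs and of Zbp1 over Ripk3 was 0.0536. These 2 ratios stayed apart between groups, and 3 against 5 libraries raise the smallest p the test allows. The loss of these 2 calls therefore does not show a weaker difference. That reading does not extend to Cgas over Trex1, which overlapped between groups with all libraries kept. Its call was also lost with several single libraries left out. DNA sensing partners called numbered 5 (2 lower, 3 higher) without a filter and 5 without KO 1 and KO 3, and 5 to 8 with single libraries left out. With the replicate block, 4 genes of STING traffic and control were called (2 lower, 2 higher) and 8 sensing genes, so the block changed no call of a sensing gene. Whether equal numbers mark pairs cannot be told, because no label ties an SI column to one KO sample. Same-numbered libraries correlated in their deviations at -0.11 to 0.18, and 1 of 5 KO libraries correlated best with its own number. Depth limits the interferon genes and Jaml, which lay under 3 counts per library.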
